A study of Homo sapiens with 8 samples.

Results

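miR-21 is one of the most studied miRNAs of human tumors, and its hairpin gives rise to a pair of mature miRNAs, miR-21-5p (hsa-miR-21-5p) and miR-21-3p (hsa-miR-21-3p). Both were followed by small RNA-seq in tumor-derived cell lines. They were chosen by name, as the rows of the deposited miRNA table named for either arm, and are 2 of its 2588 mature miRNA names, with 1 entry each. The libraries came from parental, untreated cells of 4 lines: ES-2 (ovarian cancer), MV-3 (melanoma), Huh-7 (hepatocellular carcinoma) and A-549 (lung adenocarcinoma). Each line had 2 biological replicates, 8 libraries in all, harvested 48 h after seeding in DMEM with fetal bovine serum. Each group is therefore a single established line, and a difference between lines cannot be told apart from a difference between the tissues or tumors they came from. Values are given for the replicates in the order of their numbers.

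A miRNA hairpin is cut by Drosha in the nucleus and by Dicer in the cytoplasm into a duplex of its 5′ arm (5p) and its 3′ arm (3p). Usually one arm is loaded into an Argonaute protein and guides it to mRNAs through its seed, bases 2 to 8, whereas the other arm is degraded. miR-21-5p is the guide arm, is abundant in most solid tumors and is known for the repression of tumor suppressors such as PDCD4. miR-21-3p is the arm usually described as the passenger strand.

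The hairpin of miR-21 (MIR21) lies on the plus strand of chromosome 17 in GRCh38, from 59841266 to 59841337, and is 72 bases long. It lies inside the gene VMP1 (chromosome 17, 59707192 to 59842255, GENCODE release 44), which encodes a membrane protein required for autophagy, and its end is 918 bases upstream of the gene's end. It was within an exon of 10 of the 10 annotated VMP1 transcripts that span it, and in an untranslated part of 6 of 6 that are protein coding. The mature sequence of miR-21-5p is shown with that of miR-590-5p, because these are the only 2 of 2370 mature miRNAs in the RefSeq table (GRCh38.p14) with the same seed. The capitals mark the seed. The positions are chr17:59841273-59841294 (plus strand) for miR-21-5p and chr7:74191213-74191234 (plus strand) for miR-590-5p.
miR-21-5p: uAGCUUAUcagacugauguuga
miR-590-5p: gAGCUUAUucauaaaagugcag
Both are 22 bases long. Reads of the seed relative miR-590-5p were rare. There were 5 and 11 of them in the ES-2 libraries, 0 and 0 in MV-3, 21 and 11 in Huh-7 and 0 and 2 in A-549. Of the 2588 names, 2281 had a sequence in the RefSeq table. Among those, practically all reads with this seed came from miR-21-5p in each line.

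The libraries held 1173902 to 2670030 reads on mature miRNAs. Replicates of a line differed by more than counting error (chi-square per degree of freedom of 9.40 to 16.8 over the miRNAs tested). As a check of the Huh-7 label, the liver miRNA miR-122-5p reached 132716 and 146922 library CPM (reads per 1000000 miRNA reads) in Huh-7 and at most 45.1 in a library of the other lines. No such marker was examined for the other lines.

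miR-21-5p was the most abundant miRNA in each of the 8 libraries. In A-549 it made up most of the miRNA reads, which it did in none of the other lines. The ES-2 libraries held 469309 and 620456 reads of it, compared with 389202 and 497468 in MV-3, 723669 and 564623 in Huh-7, and 1736445 and 1322382 in A-549. Its share of miRNA reads was 28.2% and 27.0% in ES-2 (27.6% ± 0.836, SD, n = 2). The shares in MV-3 were 33.2% and 32.1% (32.6% ± 0.739) and those in Huh-7 33.3% and 32.9% (33.1% ± 0.306). In A-549 they were 65.0% and 64.2% (64.6% ± 0.610). The A-549 libraries lay far above the others, the ES-2 libraries were the lowest, and MV-3 and Huh-7 overlapped. Exact 95% binomial intervals (Clopper-Pearson) of a library's share, which cover counting error only, were narrower than the gap between replicates, for instance 65.0% to 65.1% and 64.1% to 64.2% in A-549. The share differed among the 4 lines in an exact permutation test of the F ratio over 105 partitions (p = 0.0190, upper tail of F, with 0.00952 as the smallest possible p). For a pair of lines with 2 libraries each, the exact permutation test cannot go below p = 0.333, and this value was obtained for 5 of 6 pairs. MV-3 and Huh-7 gave p = 0.667 in this permutation test.

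miR-21-3p was a minor species in all lines. Its reads numbered 1086 and 1518 in ES-2, 916 and 1258 in MV-3, 1191 and 1083 in Huh-7 and 3755 and 2500 in A-549. Its share of miRNA reads was 0.0653% and 0.0661% in ES-2, 0.0780% and 0.0812% in MV-3, 0.0548% and 0.0630% in Huh-7 and 0.141% and 0.121% in A-549. The A-549 libraries were again the highest, the lines did not overlap, and the order of the other lines was not that of miR-21-5p. Among the 4 lines the shares differed (exact permutation test, p = 0.00952, the smallest possible). Ranked by reads, miR-21-3p was at position 73 and 72 in ES-2, 72 and 72 in MV-3, 95 and 91 in Huh-7 and 43 and 46 in A-549.

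**Figure D1:**
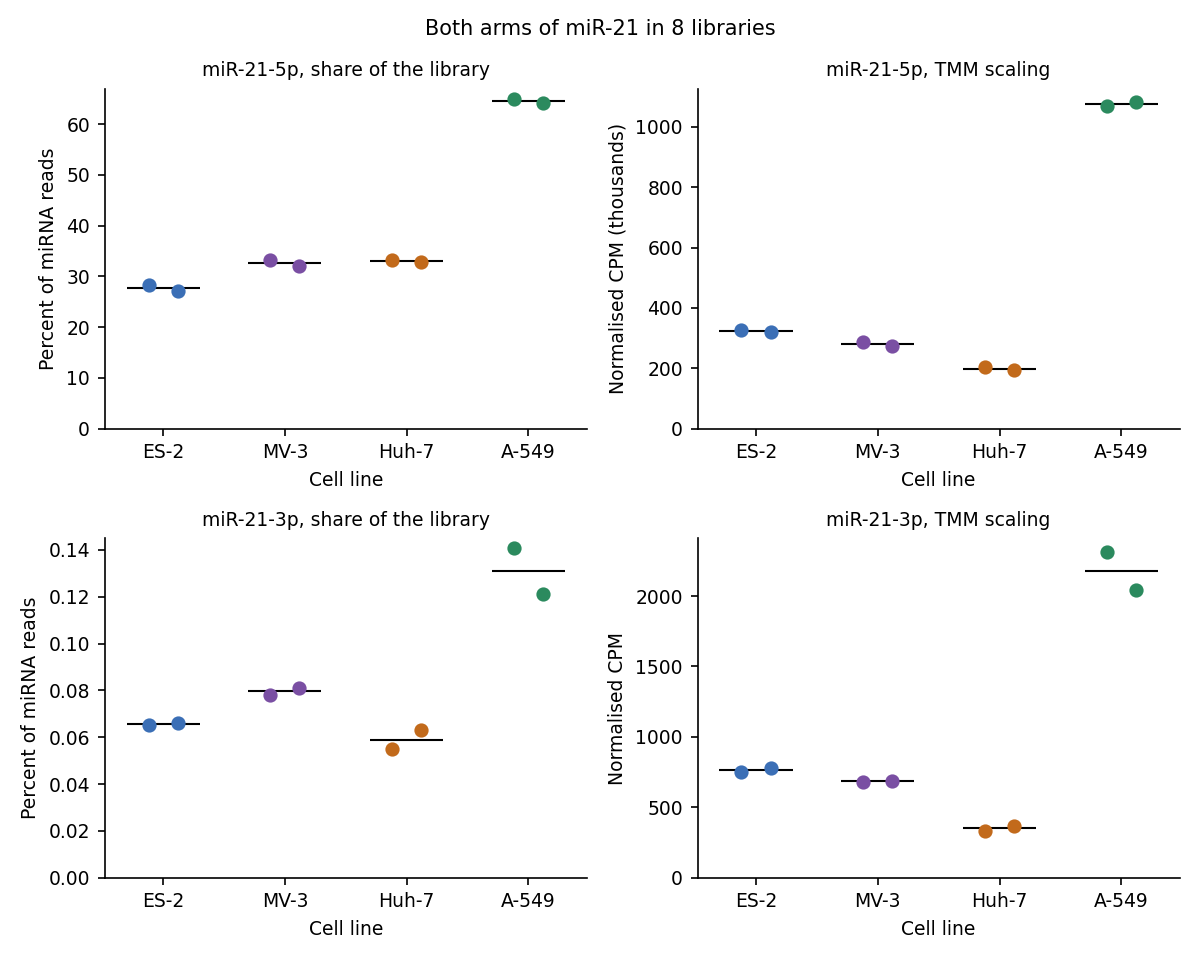
Share of miRNA reads (left, percent) and level on the TMM scale (right, normalised CPM) of miR-21-5p (top) and miR-21-3p (bottom). Each point is a library, lines are means of 2 replicates and all axes start at 0. A-549 is highest in the 4 panels, at 65.0% and 64.2% for the share of miR-21-5p, and the order of ES-2, MV-3 and Huh-7 differs between the left and the right panels.

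The level of each arm was compared between lines on the scale used by the authors. There, the effective size of a library is set from the bulk of its miRNAs by a trimmed mean of M values (TMM). These values are called normalised CPM (counts per 1000000). For miR-21-5p they were 325786 and 318640 in ES-2, 288099 and 272993 in MV-3, 203763 and 192832 in Huh-7 and 1068841 and 1081465 in A-549. No lines overlapped, and the order from high to low was A-549, ES-2, MV-3, Huh-7. In A-549 the reads of miR-21-5p alone exceeded the effective library size 1.07-fold and 1.08-fold, so that its value is larger than the scale itself.

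By limma over 528 miRNAs with a threshold of 0.01 for the Benjamini-Hochberg adjusted p, miR-21-5p was called in 5 of 6 pairs of lines. It was higher in A-549 than in each other line. Against Huh-7 the log2 difference was 2.44 ± 0.0551 (SE), a 5.42-fold higher level (adjusted p = 2.63e-07). Against MV-3 it was 1.94 (3.83-fold, adjusted p = 1.71e-06) and against ES-2 1.74 (3.34-fold, adjusted p = 2.13e-06). Such calls were common in these pairs. Of all miRNAs tested, 52.3%, 39.6% and 41.3% were called against Huh-7, MV-3 and ES-2, and 28.6%, 24.1% and 23.7% were called with A-549 higher. In Huh-7 miR-21-5p was below ES-2 by a log2 difference of -0.70 (adjusted p = 5.81e-05) and below MV-3 by -0.50 (adjusted p = 0.000300). In these pairs 49.2% and 47% of all miRNAs were called, 21.6% and 20.1% with Huh-7 lower. Both directions rest on scaling from the bulk of the miRNAs. With RLE factors in place of TMM the log2 differences were -0.77 and -0.57, and with DESeq2 -0.83 and -0.60. Plain library totals gave neither direction. MV-3 and ES-2 differed by -0.20 (95% interval -0.33 to -0.07, adjusted p = 0.0315), which did not pass the threshold. In this pair 25.8% of miRNAs were called.

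The order of the other 3 lines depended on the scaling. In library CPM, which have no TMM factor, miR-21-5p was not lower but higher in Huh-7 compared with ES-2, with a log2 difference of 0.26 (1.20-fold, adjusted p = 0.00112). It was also higher in MV-3 compared with ES-2, by 0.24 (adjusted p = 0.00382). Here 59.5% and 27.1% of miRNAs were called, 43% with Huh-7 higher and 16.1% with MV-3 higher. It differed by 0.02 between Huh-7 and MV-3 (95% interval -0.08 to 0.12, adjusted p = 0.696), where 52.8% were called. The higher level in A-549 remained on this scale but was smaller, with log2 differences of 1.23 against ES-2, 0.99 against MV-3 and 0.97 against Huh-7 (adjusted p = 1.70e-06, 4.60e-06 and 2.04e-06). With A-549 higher, 21.2%, 15.5% and 21% of miRNAs were called on this scale, of 47.7%, 45.6% and 67.2% in all. Against Huh-7, the fold difference was 1.95 in library CPM and 5.42 in normalised CPM.

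The level of miR-21-3p was 754 and 780 normalised CPM in ES-2, 678 and 690 in MV-3, 335 and 370 in Huh-7 and 2311 and 2045 in A-549. The lines did not overlap and stood in the same order as for miR-21-5p. It was higher in A-549 than in Huh-7 by a log2 difference of 2.62 ± 0.0885 (SE, 6.16-fold, adjusted p = 1.33e-06), than in MV-3 by 1.67 (3.17-fold, adjusted p = 2.27e-05) and than in ES-2 by 1.50 (2.83-fold, adjusted p = 2.19e-05). On this scale Huh-7 was below ES-2 (-1.12, adjusted p = 5.95e-05) and MV-3 (-0.96, adjusted p = 0.000137). MV-3 and ES-2 differed by -0.16 (95% interval -0.38 to 0.05, adjusted p = 0.217). In library CPM, miR-21-3p was still higher in A-549 than in each other line, by log2 differences of 0.71 to 1.15, and Huh-7 was below MV-3 (-0.44, adjusted p = 0.00947), where 17.4% of miRNAs were called with Huh-7 lower. On that scale Huh-7 and ES-2 differed by -0.16 (adjusted p = 0.213), and the difference of MV-3 and ES-2 changed sign to 0.28 (adjusted p = 0.0774).

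The ratio of the arms within a library needs no scaling. miR-21 gave 432 and 409 reads of 5p per read of 3p in ES-2 (420 ± 16.6, SD, n = 2), 425 and 395 in MV-3 (410 ± 20.8), 608 and 521 in Huh-7 (564 ± 61.0) and 462 and 529 in A-549 (496 ± 47.0). In other words, miR-21-3p made up 0.164% to 0.252% of all miR-21 reads. The Huh-7 and A-549 libraries overlapped, as did those of ES-2 and MV-3, and all libraries of the former pair lay above all libraries of the latter. The largest line mean exceeded the smallest 1.37-fold, compared with 5.42-fold for the normalised level of miR-21-5p.

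This ratio was tested together with that of the 151 hairpins, of 838 with both arms named, that had at least 10 reads of each arm in 2 libraries. Of the 6 pairs of lines, limma called 0 for miR-21 at the threshold of 0.01. The unadjusted p of limma was below 0.05 in 3, Huh-7 against ES-2, Huh-7 against MV-3 and A-549 against MV-3. How many of all hairpins were below 0.05 was not counted in these pairs, so that number has no background here. The share of hairpins called was 1.32% for Huh-7 against ES-2, 3.31% for MV-3 against ES-2, 4.64% for Huh-7 against MV-3, 1.99% for A-549 against MV-3 and 0.662% for A-549 against Huh-7. For A-549 against ES-2 it was 0%, with 26 of 151 at an unadjusted p below 0.05 and 2 called by edgeR. The number called in any pair rested on the settings: it was 11 of 151 here, 54 with 5 reads added to each arm instead of 0.5, and 2 when either Huh-7 library was left out and fewer hairpins passed the filter. The largest log2 difference was 0.46 between Huh-7 and MV-3 (95% interval 0.20 to 0.72, limma, adjusted p = 0.0468), followed by 0.42 between Huh-7 and ES-2 (0.16 to 0.68, adjusted p = 0.0597). The smallest was -0.04 between MV-3 and ES-2 (-0.30 to 0.22, adjusted p = 0.881). The intervals reach up to 1.65-fold, so that differences of this size between lines lie within them. Over the 4 lines the adjusted p was 0.0743, with 5.3% of hairpins called, and the exact permutation test of the ratio of miR-21 alone gave p = 0.0476 over 105 partitions. edgeR's quasi-likelihood test on the reads gave adjusted p values of 0.205 to 1 for the 6 pairs.

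Among the 151 hairpins, 81 had more 5p than 3p reads on average. miR-21 was at position 7, with a mean log2 ratio of 8.87. The ratios next to it were those of let-7a (8.96) above and let-7c (8.87) below. The hairpins most biased to the 5p arm were miR-30d (11.6), miR-100 (10.7) and miR-182 (10.1), and those most biased to the 3p arm were miR-222 (-9.53), miR-29a (-9.51) and miR-148b (-8.70). Many of these ratios rested on few reads of the rarer arm, on average 9.88 per library for miR-30d and 7.75 for let-7c, compared with 1663 for miR-21. The line means of miR-21 spanned 0.46 on the log2 scale, whereas the median span over hairpins was 1.71, and miR-21 was at position 12 from the smallest. The residual SD within lines was 0.114 for miR-21 and 0.659 for the median hairpin. A small span was not particular to miR-21 among hairpins with many reads of the rarer arm. Over the libraries miR-21 spanned 0.620, compared with 0.387 for miR-151a, 0.535 for miR-423 and 0.572 for miR-28. The spans of miR-106b, miR-30a and miR-221 were 0.672, 0.741 and 0.864, whereas miR-483 spanned 5.29.

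**Figure D2:**
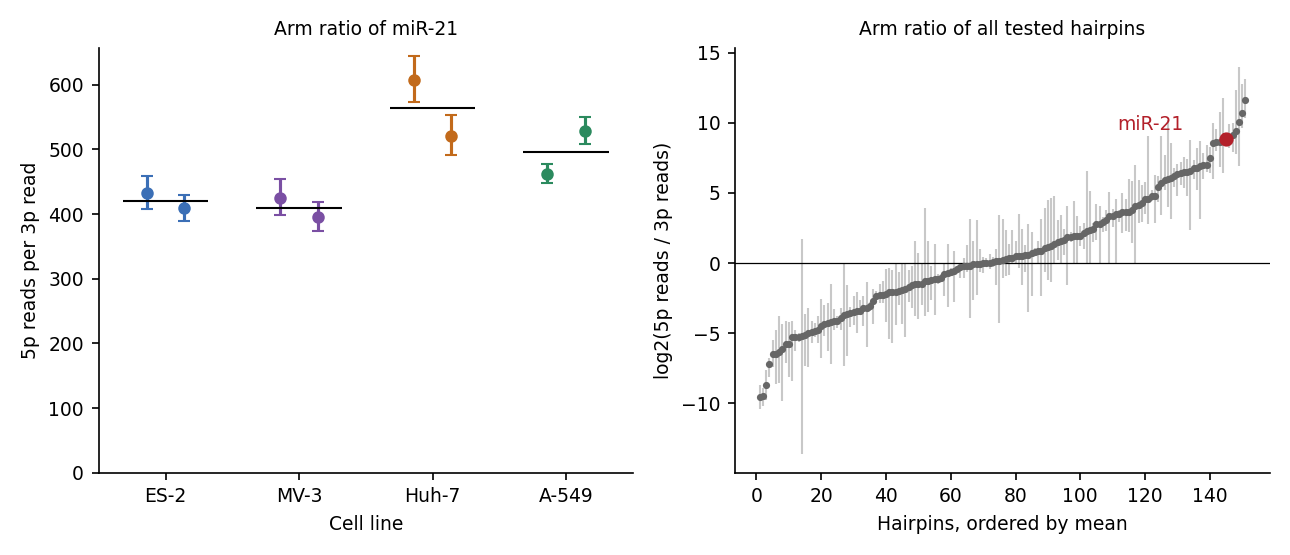
Left, reads of miR-21-5p per read of miR-21-3p, with a point per library, exact 95% binomial intervals (counting error only) as bars and means of 2 replicates as lines. Right, mean log2 ratio of 5p to 3p reads of 151 hairpins in rising order, with the range over 8 libraries as bars. miR-21 (red) has a mean of 8.87, and its libraries span less than those of most hairpins, many of which had few reads of the rarer arm.

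The distance from miR-21-5p to the next miRNA differed between lines. In ES-2 and MV-3 it was followed by let-7a-5p, a member of the tumor-suppressive let-7 family, which it exceeded 2.24-fold and 3.10-fold. In Huh-7 the next miRNA was miR-122-5p, exceeded 2.37-fold. In A-549, let-7a-5p came next and was exceeded 13.4-fold, and miR-30a-5p, let-7i-5p, let-7f-5p and miR-27b-3p followed with 2.93%, 2.14%, 1.78% and 1.37% of reads. Without the reads of miR-21-5p, let-7a-5p would make up 13.6% of the A-549 libraries, instead of 4.83%. The corresponding values were 17.1% and 12.4% in ES-2 and 15.6% and 10.5% in MV-3. With miR-21-5p left out, 90% of the reads came from 54 and 52 miRNAs in A-549, 36 and 35 in ES-2, 45 and 45 in MV-3 and 57 and 56 in Huh-7. With it, A-549 had the lowest numbers, 22 and 22, and the others had 27 and 27, 35 and 35, and 43 and 42.

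Since library CPM sum to the same total, a miRNA that holds a large share lowers the values of all others. The factor by which miR-21-5p did so, total reads over reads other than miR-21-5p, was 1.39 and 1.37 in ES-2, 1.50 and 1.47 in MV-3, 1.50 and 1.49 in Huh-7 and 2.86 and 2.79 in A-549. By this arithmetic every other miRNA was 2.04-fold lower in A-549 relative to ES-2 in library CPM than in CPM of the reads other than miR-21-5p. The factor was 1.90 relative to MV-3 and 1.89 relative to Huh-7. Among ES-2, MV-3 and Huh-7 it was at most 1.08.

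TMM factors were read from the deposited values and computed again without miR-21-5p. They were 0.866 and 0.848 in ES-2, 1.15 and 1.18 in MV-3, 1.63 and 1.70 in Huh-7 and 0.608 and 0.593 in A-549. Without miR-21-5p they became 0.709 and 0.683, 1.01 and 1.01, 1.43 and 1.49, and 0.976 and 0.972. Thus the low factors of A-549 rose to near those of MV-3, and the log2 difference of the factors between these lines went from -0.95 to -0.05. Between A-549 and ES-2 it changed sign, from -0.51 to 0.49. The high factors of Huh-7 persisted, with a log2 difference to ES-2 of 0.96 with and 1.07 without miR-21-5p. The ratio of the largest to the smallest factor fell from 2.87 to 2.18. Effective library sizes, the product of factor and total, hardly moved. Relative to their geometric mean they changed by -3.83% in A-549 replicate 1 and by at most 0.743% in the other libraries, so normalised CPM of other miRNAs were nearly the same whether or not miR-21-5p was in the table.

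**Figure D3:**
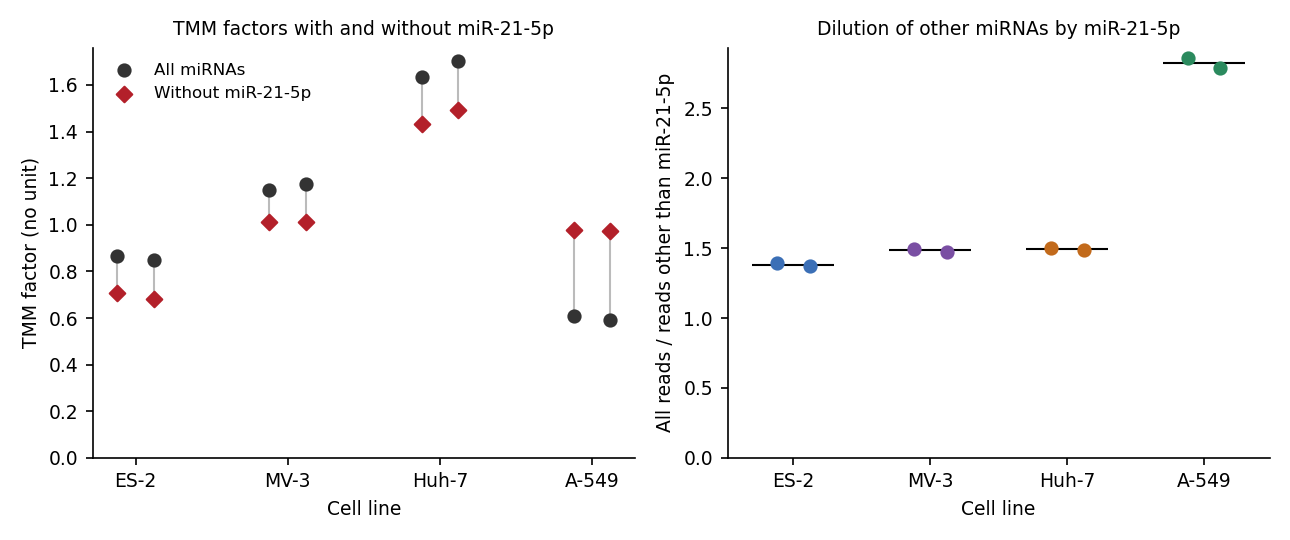
Left, TMM factor of each library with all miRNAs (black circles) and without miR-21-5p (red diamonds), 2 libraries per line. Right, total miRNA reads over reads other than miR-21-5p, with lines at the means of 2 replicates. The factors of A-549 move from 0.608 and 0.593 to 0.976 and 0.972, and the right panel shows A-549 at 2.86 and 2.79.

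The 526 other miRNAs that passed the filter were tested under 3 scalings, all miRNA reads, reads other than miR-21-5p, and TMM, with the same limma model. For A-549 against ES-2, 110 were higher and 140 lower in A-549 by all reads (47.7% of all miRNAs tested called), but 160 higher and 56 lower without the miR-21-5p reads (41.2% called). TMM gave 123 and 93 (41.3% called). For A-549 against MV-3 the 3 scalings gave, in the same order, 80 higher and 159 lower, 115 and 84, and 125 and 82 (45.6%, 38% and 39.6% called). For A-549 against Huh-7 they gave 109 and 244, 134 and 161, and 149 and 125 (67.2%, 56.2% and 52.3% called). The majority of calls thus was lower in A-549 in each of these 3 pairs by all reads, and higher in A-549 in each of them by TMM. Without the miR-21-5p reads it was higher in A-549 against ES-2 and MV-3, and lower against Huh-7.

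In the pairs without A-549 the reads of miR-21-5p moved the calls little. Huh-7 against ES-2 had 226 higher and 87 lower by all reads and 219 and 87 without them (58.1% called). MV-3 against ES-2 had 84 and 58, and 91 and 49 (26.6% called), and Huh-7 against MV-3 had 187 and 91, and 176 and 89 (50.3% called). TMM gave fewer higher and more lower miRNAs in these pairs, with 146 and 112, 61 and 75, and 142 and 104. The median log2 difference of the other miRNAs was -0.29 (A-549 against ES-2), -0.53 (against MV-3) and -1.39 (against Huh-7) by all reads. It was 0.50, 0.06 and -0.62 without miR-21-5p, and 0.00, 0.08 and -0.10 by TMM. For Huh-7 against ES-2 it was 1.09, 1.25 and 0.34.

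**Figure D4:**
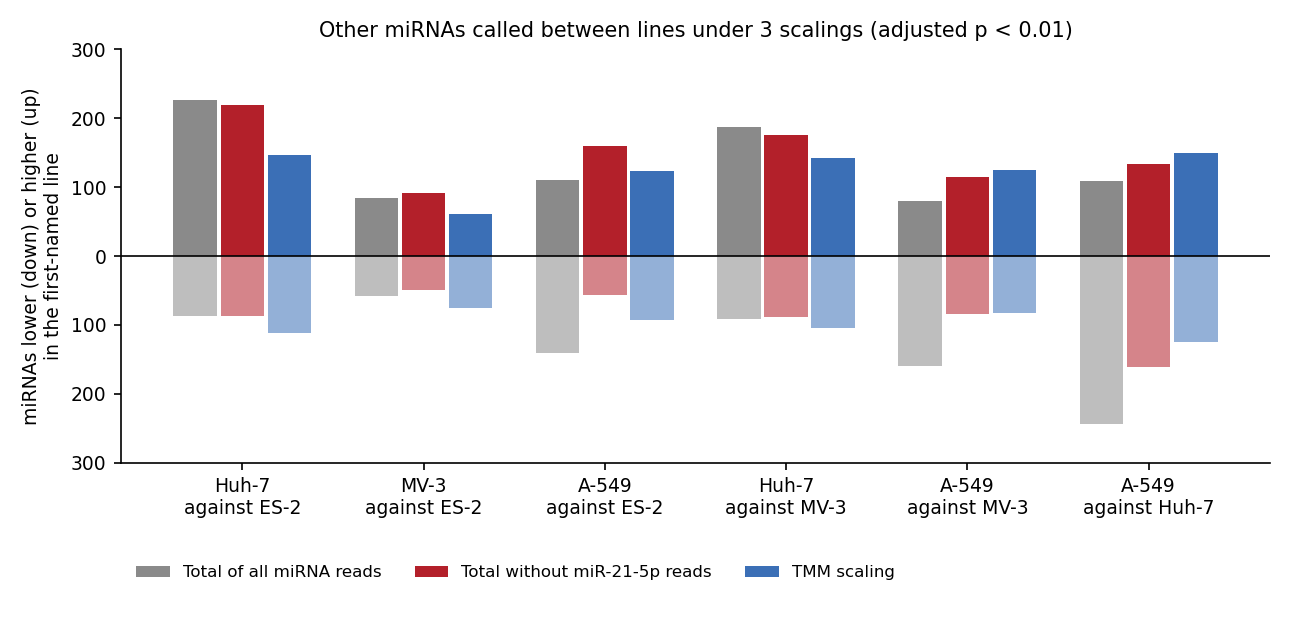
Number of other miRNAs (of 526) higher (bars up) or lower (bars down, pale) in the first-named line of each pair, at an adjusted p below 0.01 by limma, under 3 scalings. In the 3 pairs with A-549, bars down are longest for the total of all miRNA reads (140, 159 and 244 miRNAs).

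Single miRNAs changed their call with the reads of miR-21-5p. Between the totals with and without them, 74, 76 and 82 calls were lost and 40, 36 and 24 gained for A-549 against ES-2, MV-3 and Huh-7, and 10, 2 and 1 went in opposite directions. Compared with ES-2, let-7a-5p was called lower in A-549 by all reads, with a log2 difference of -1.36, and without the miR-21-5p reads it gave -0.33 (adjusted p = 0.0273, not called). By TMM it was called lower, at -0.85. Against MV-3 the difference went from -1.13, called, to -0.20 without the miR-21-5p reads, and by TMM it was -0.18 (both not called). Compared with ES-2, miR-30d-5p was lower in A-549 by all reads (-0.36), higher without the miR-21-5p reads (0.67), and was not called by TMM (0.15). The calls of miR-30a-5p in A-549 against ES-2 went the same way, with -0.72, 0.31 and -0.20. Both belong to the miR-30 family, whose members share a seed.

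Against MV-3, let-7g-5p and miR-25-3p were the 2 with opposite calls. let-7g-5p went from -0.58 by all reads to 0.35 without miR-21-5p and 0.37 by TMM, and miR-25-3p from -0.53 to 0.40 and 0.43. miR-93-5p, a member of the miR-17 family, lost its call, with -1.01, -0.08 and -0.06. Against Huh-7 the miRNA with opposite calls was miR-125a-5p, at -0.38, 0.54 and 1.09. miR-99b-5p (-0.75, 0.17 and 0.72) was called lower by all reads and higher by TMM, and miR-199a-3p (-0.99, -0.19 and 0.31) was called by all reads only among these scalings.

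The let-7-5p family (let-7a to let-7g, let-7i and miR-98-5p, summed) showed the same dependence. Its sum was 105582 and 121571 library CPM in A-549, 200495 and 211786 in ES-2 and 167063 and 180434 in MV-3, hence lower in A-549, with ratios of 0.551 and 0.654. In CPM of the reads other than miR-21-5p the ratios were 1.13 and 1.24, and in normalised CPM 0.787 and 1.27. Against ES-2, therefore, the family was lower in A-549 on 2 of 3 scales, and against MV-3 it was higher on 2 of 3. The libraries did not overlap on any of the scales. The difference to Huh-7 did not depend on the scale in its direction, with 7.79-fold, 14.7-fold and 21.7-fold higher sums in A-549.

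A list of 8 miRNAs often used as reference for small RNA was also followed: miR-191-5p, miR-103a-3p, miR-16-5p, miR-25-3p, miR-93-5p, miR-423-5p, let-7i-5p and miR-186-5p. All 8 passed the filter. For A-549 against ES-2, 0 were called higher and 6 lower by all reads, 4 higher and 1 lower without miR-21-5p, and 0 higher and 3 lower by TMM, where 47.7%, 41.2% and 41.3% of all miRNAs were called. Their median log2 differences were -0.54, 0.49 and -0.03, beside -0.29, 0.50 and 0.00 over all other miRNAs. miR-103a-3p illustrates the range. It had 4286 and 4546 library CPM in A-549 and 6323 and 6482 in ES-2, and was called lower (-0.54). In CPM of the reads other than miR-21-5p it had 12259 and 12689 in A-549 and 8809 and 8884 in ES-2, and was called higher (0.50). In normalised CPM it had 7045 and 7661, and 7301 and 7640, which overlapped (-0.02, adjusted p = 0.804). miR-25-3p and miR-93-5p were also called lower by all reads (-0.40 and -0.55) and higher without miR-21-5p (0.63 and 0.48). miR-186-5p was lower in A-549 under each scaling (-1.97, -0.94 and -1.45). Against MV-3, 0 were higher and 6 lower by all reads, 2 and 2 without miR-21-5p, and 2 and 3 by TMM, where 45.6%, 38% and 39.6% of all miRNAs were called. The medians were -1.11, -0.18 and -0.16, beside -0.53, 0.06 and 0.08 over all other miRNAs. Against Huh-7, 1 was higher and 7 lower under each scaling, where 67.2%, 56.2% and 52.3% of all miRNAs were called, with medians of -2.23, -1.31 and -0.76 beside -1.39, -0.62 and -0.10.

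Of 16 miRNAs often described as raised in solid tumors, as miR-21-5p is, all passed the filter. For A-549 against ES-2, 2 were higher and 8 lower by all reads, 6 and 7 without miR-21-5p, and 4 and 7 by TMM (47.7%, 41.2% and 41.3% of all miRNAs called). The medians were -1.21, -0.26 and -0.75, beside -0.29, 0.50 and 0.00 over all other miRNAs. Against MV-3 the numbers were 1 and 10, 3 and 7, and 3 and 7 (45.6%, 38% and 39.6% of all called), with medians of -1.28, -0.42 and -0.39 beside -0.53, 0.06 and 0.08. Against Huh-7 they were 4 and 11, 4 and 8, and 4 and 5 (67.2%, 56.2% and 52.3% of all called), with medians of -1.70, -0.85 and -0.29 beside -1.39, -0.62 and -0.10. Under each scaling, miR-31-5p was higher in A-549 than in the other 3 lines, by log2 differences of 2.21, 1.75 and 13.0 against ES-2, MV-3 and Huh-7 in normalised CPM. miR-17-5p, miR-20a-5p and miR-92a-3p of the miR-17-92 cluster were lower in A-549 than in each other line under each scaling. In normalised CPM, miR-17-5p differed by -2.08, -1.26 and -1.66. miR-221-3p and miR-222-3p, which share a seed and a cluster, were lower in A-549 against ES-2 (-2.06 and -2.18) and MV-3 (-1.23 and -1.41) and higher against Huh-7 (2.89 and 2.57 normalised), again under each scaling. miR-183-5p did depend on it. Against MV-3 it was called lower in A-549 by all reads (-0.73) but not without miR-21-5p (0.20) or by TMM (0.23). In the pairs without A-549, TMM gave 5 higher and 7 lower for Huh-7 against ES-2, where all reads gave 9 and 4 (49.2% and 59.5% of all miRNAs called). It gave 8 and 4 for Huh-7 against MV-3 and 2 and 6 for MV-3 against ES-2 (47% and 25.8% of all called), where all reads gave 9 and 4, and 4 and 4 (52.8% and 27.1%). Some of the miRNAs named here are encoded at several loci, among them let-7a-5p, miR-16-5p, miR-103a-3p and miR-92a-3p. The entries of each such miRNA were summed. The counting of reads that align to several loci was not stated, so such reads may have been counted more than once. How far this affects the levels of these miRNAs or the totals was not tested.

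The share of miR-21-5p also set the depth left for the other miRNAs. A-549 had 933585 and 738287 reads other than miR-21-5p, of 2670030 and 2060669 in total, whereas Huh-7 had 1449918 and 1153627 of 2173587 and 1718250. The floor of 3 reads was at 1.12 and 1.46 library CPM in A-549 and at 3.21 and 4.06 CPM of the reads other than miR-21-5p. When libraries were reduced by calculation to the same total of 1173902 reads, 606 and 614 other miRNAs were expected to be detected in A-549, compared with 584 and 625 in ES-2, 658 and 697 in MV-3 and 806 and 810 in Huh-7. At the same 738287 reads other than miR-21-5p, the expected numbers were 656 and 662 in A-549, 573 and 611 in ES-2, 653 and 689 in MV-3 and 800 and 804 in Huh-7. A-549 thus overlapped ES-2 at the same total, and was above both ES-2 libraries at the same number of other reads. Counts of abundant miRNAs moved likewise. In A-549, 150 and 153 miRNAs reached 100 library CPM, whereas 224 and 221 reached 100 CPM of the reads other than miR-21-5p. There, 189 and 185 reached 100 normalised CPM. Between the first 2 scales the counts also rose in the other lines. They went from 140 and 138 to 157 and 157 in ES-2 and from 158 and 161 to 180 and 180 in MV-3. In Huh-7 they went from 182 and 183 to 207 and 208.

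Finally, the miRNAs whose levels were most similar to those of miR-21 across the 8 libraries were determined among the 180 others that averaged 100 normalised CPM or more. Pearson's r on the log2 scale served as the measure of likeness. As the libraries are pairs of replicates of 4 lines, with A-549 far from the rest, the coefficients only describe this pattern. In normalised CPM, the miRNA most similar to miR-21-5p was miR-21-3p (r = 0.977), followed by miR-127-3p (0.928), miR-369-3p (0.921), miR-132-3p (0.913) and miR-485-3p (0.900). The order depended on the scale. In library CPM, r was 0.964 for miR-369-3p, 0.952 for miR-127-3p and 0.930 for miR-485-3p, all above the 0.904 of miR-21-3p, and 0.688 for miR-132-3p. miR-127-3p, miR-369-3p and miR-485-3p belong to the imprinted DLK1-DIO3 region. Their mean levels were 599, 1432 and 430 normalised CPM in A-549 and at most 1.71, 34.5 and 13.3 in another line. They thus passed the average of 100 only through A-549, the line where both arms of miR-21 were highest. Their coefficients with either arm follow in part from this filter and are no independent evidence of likeness. For miR-21-3p, the list in normalised CPM after miR-21-5p was miR-132-3p (0.969), let-7e-5p (0.908), miR-369-3p (0.881) and miR-485-3p (0.874). In library CPM these gave 0.901, 0.737, 0.948 and 0.963, so that miR-369-3p and miR-485-3p were then above miR-21-5p (0.904). miR-132-3p had the same order of lines at the extremes, with 520 normalised CPM in A-549, 130 in MV-3, 113 in ES-2 and 21.5 in Huh-7.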

How the data were processed

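For small RNA-seq, the authors used total RNA (TRIZOL) and the NEXTflex Small RNA kit. Per the study's methods and the submitters' processing notes, reads were clipped with cutadapt (1.14), aligned to GRCh38 with Bowtie2 (2.3.2) and summarized on miRBase mature miRNAs with featureCounts (1.5.3). The handling of multi-mapping reads, strand and the random adapter bases was not stated. Reads are not molecules, and the shares and arm ratios given here are those of reads.

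The deposited values are a normalised signal, CPM scaled by TMM of edgeR (3.18.1). Divided by the worth of a single read in their library, 100% of values were whole (tolerance 0.001), from which reads, totals and TMM factors were recovered. Recomputed factors differed by at most 1.78e-15. The 2813 entries were summed to 2588 names.

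limma (3.58.1, R 4.3.3) was run on log2(value + 1), with 1 term per line, 4 residual degrees of freedom and filterByExpr (528 miRNAs kept), and the Benjamini-Hochberg adjusted p was set at 0.01. Fold changes on this scale understate those of miRNAs with few reads. Arm ratios were log2 of 5p over 3p reads with 0.5 added to each. Tests were tried on simulated data. The 2 arms, the reference and tumor lists and the tests were chosen with earlier results of these data known, and no count over a list is independent evidence. Named were the arms, miRNAs with the seed of miR-21-5p, the 5 most abundant miRNAs after miR-21-5p per line, the let-7-5p family and both lists. The RefSeq table held no sequence of miR-21-3p, so its seed relatives were not looked up. Also named were the 5 miRNAs most similar to each arm and, per pair with A-549, the 3 most abundant whose call was lost or turned. The hairpins at the extremes of and next to miR-21 in arm ratio were named as well. miR-25-3p against MV-3 was singled out after its values were seen. Replicate numbers were not used to pair libraries in the main fits, and p values reflect the spread between 2 biological replicates of a line as the study names them. Alternatives were RLE factors, other totals, other filters, edgeR (4.0.16) and DESeq2 (1.42.0) on recovered reads, pseudocounts, a replicate block, fits of single pairs and leaving out libraries.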

Additional observations from a re-analysis of the deposited data

How the results depend on the processing

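The higher level of both arms in A-549 than in each other line was called under all 12 alternatives and kept its direction without any single library. Such calls were common in these pairs. In the main setting 41.3%, 39.6% and 52.3% of all miRNAs were called against ES-2, MV-3 and Huh-7. Over the main setting and these alternatives, 180 to 281, 170 to 278 and 226 to 353 other miRNAs were called. By library size only, and by the total without miR-21-5p reads, differences of miR-21-5p turned sign: 0.26 and 0.37 for Huh-7 against ES-2, 0.24 and 0.34 for MV-3 against ES-2, and 0.020 and 0.029 for Huh-7 against MV-3 (log2). miR-21-3p also turned for MV-3 against ES-2 (0.28 and 0.38) and was no longer called for Huh-7 against ES-2 (-0.16 and -0.048) and, by the total without miR-21-5p, for Huh-7 against MV-3 (-0.43). These alternatives scale by plain totals, without a factor set from the bulk of the miRNAs. RLE factors and DESeq2, which use such a factor, kept the direction of miR-21-5p in these pairs. The difference of -0.20 for miR-21-5p in MV-3 against ES-2 was called at an adjusted p below 0.05 (0.0315) and by DESeq2 (-0.23, adjusted p = 0.00702). In that pair, 123 to 187 other miRNAs were called by TMM over the main setting and the alternatives. The arm ratio of Huh-7 against MV-3 (0.46) was called at 0.05, where the share of all hairpins called was not counted. Without single libraries, the arm ratio of MV-3 against ES-2 ranged from -0.088 to 0.016, above 0 without ES-2 replicate 1 (0.0039) or MV-3 replicate 2 (0.016), and was never called. Hairpins called in any pair numbered 11, and 54 with 5 reads added to each arm instead of 0.5. Without single libraries they numbered 2 to 14, with 2 when either Huh-7 library was left out and fewer hairpins passed the filter.

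Counts of other miRNAs by TMM stayed within 1.5 times under each alternative. For MV-3 against ES-2 a threshold of 0.05 gave 215 by all reads and 211 without miR-21-5p. Leaving out single libraries gave 89 to 114 and 83 to 117, with 89 and 83 without ES-2 replicate 1, and 91 without MV-3 replicate 2. The main fits did not pair libraries by replicate number. Deviations of same-numbered libraries from their line means correlated at -0.05 to 0.23, which cannot exclude a shared batch. A fit with the replicate block changed no call of either arm or of the arm ratio, for instance 2.44 for miR-21-5p in A-549 against Huh-7 (adjusted p = 9.00e-07), and gave 247, 129, 205, 242, 206 and 277 other miRNAs by TMM for Huh-7, MV-3 and A-549 against ES-2, Huh-7 and A-549 against MV-3, and A-549 against Huh-7. Shares of miR-21-5p moved by less than the SD of replicates when the total or the arms were defined differently.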
